A study of Mus musculus with 6 samples.

Results

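Potassium channel genes were examined in the spinal cord of mice in which Sox2 had been deleted in astrocytes. The members were the protein-coding genes whose symbol begins with Kcn followed by letters and an optional number, other than Kcnj10 and Kcnj16, with a summed count of 30 or more over the 6 libraries. Of 94 protein-coding Kcn genes in the tables, Kcnj10 and Kcnj16 were set aside and 11 were below that count, which left 81 members among 35275 genes. The filter on low counts was passed by 78 of the 81, and Kcnk7, Kcnn4 and Kcnmb4 did not pass it.

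Whole spinal cord RNA of adult C57BL/6 mice was sequenced after poly(A) selection, with 3 libraries per group. The sample labels give the genotype mGfap-Cre:Sox2fl/fl for Sox2 cKO and mGfap-Cre:Sox2+/+ for the control (Ctrl) group. The series description allows controls with either mGfap-Cre or Sox2fl/fl, and the study's methods describe Sox2fl/fl littermates, so what the controls share with the Sox2 cKO mice is not settled by the sources. Age is given as postnatal day 90 in the sample characteristics and as postnatal day 80 in the protocol. The Cre driver is the mouse Gfap promoter of line 77.6, which is active in most astrocytes of brain and spinal cord, so neurons, in which many of these channels work, were not its intended target. The tissue was not sorted, and fewer cells of a type and less RNA per cell cannot be told apart.

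The deposited columns bear numbers and no group names. The Ctrl group was assigned the columns ending in 2, 4 and 6, and the Sox2 cKO group those ending in 1, 3 and 5. This follows the numbers that mice of each group bear in a protein blot of the study, on the assumption that the same mice gave the RNA. Libraries held 21507911 to 28392184 counts, and the groups overlapped in depth. Sox2 was at 19.9, 14.8 and 29.5 CPM (counts scaled to the depth of the library) in the Ctrl libraries and at 3.16, 2.69 and 2.98 CPM in the Sox2 cKO libraries. Values in this text are listed in the order of libraries 2, 4 and 6 for Ctrl and 1, 3 and 5 for Sox2 cKO.

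Potassium channels let potassium ions leave the cell, which sets the resting potential and ends the action potential. The pore is built from voltage-gated subunits, calcium- or sodium-activated subunits, inward rectifiers or the K2P subunits that carry leak current, and auxiliary subunits alter the traffic and gating of some pores. In myelinated axons of the spinal cord, channels with Kcna1 and Kcna2 lie beneath the myelin beside the nodes, while Kcnq3, Kcnk2 and Kcnk4 are known at the nodes of Ranvier.

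The level of the members spanned more than 3 orders of magnitude, as the plot of FPKM (fragments per kilobase of gene, scaled to the depth of the library) shows. The mean FPKM over the 6 libraries was 10 or more for 25 members, from 1 to under 10 for 38 and under 1 for 18. The auxiliary subunit Kcnab2 stood highest, at 210 FPKM in Ctrl, and the axonal pore Kcna1 was at 72.6. In other subfamilies, the highest member was Kcnk1 at 44.7 FPKM in Ctrl for the leak channels, Kcng4 at 43.3 for the silent subunits, Kcnh2 at 35.1 for the ether-a-go-go family and Kcnip3 at 29.8 for the Kcnip calcium sensors. Levels were lower in further subfamilies, whose highest members were Kcnt1 at 16.6 FPKM in Ctrl, Kcnj11 at 14.6, Kcnd2 at 11.98, Kcns3 at 8.21, Kcnma1 at 8.41, Kcne1l at 6.61, Kcnn2 at 6.58, Kcnmb2 at 1.70, Kcnf1 at 1.36, Kcnu1 at 0.701, Kcnv1 at 0.437 and Kcnrg at 0.406.

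**Figure D1:**
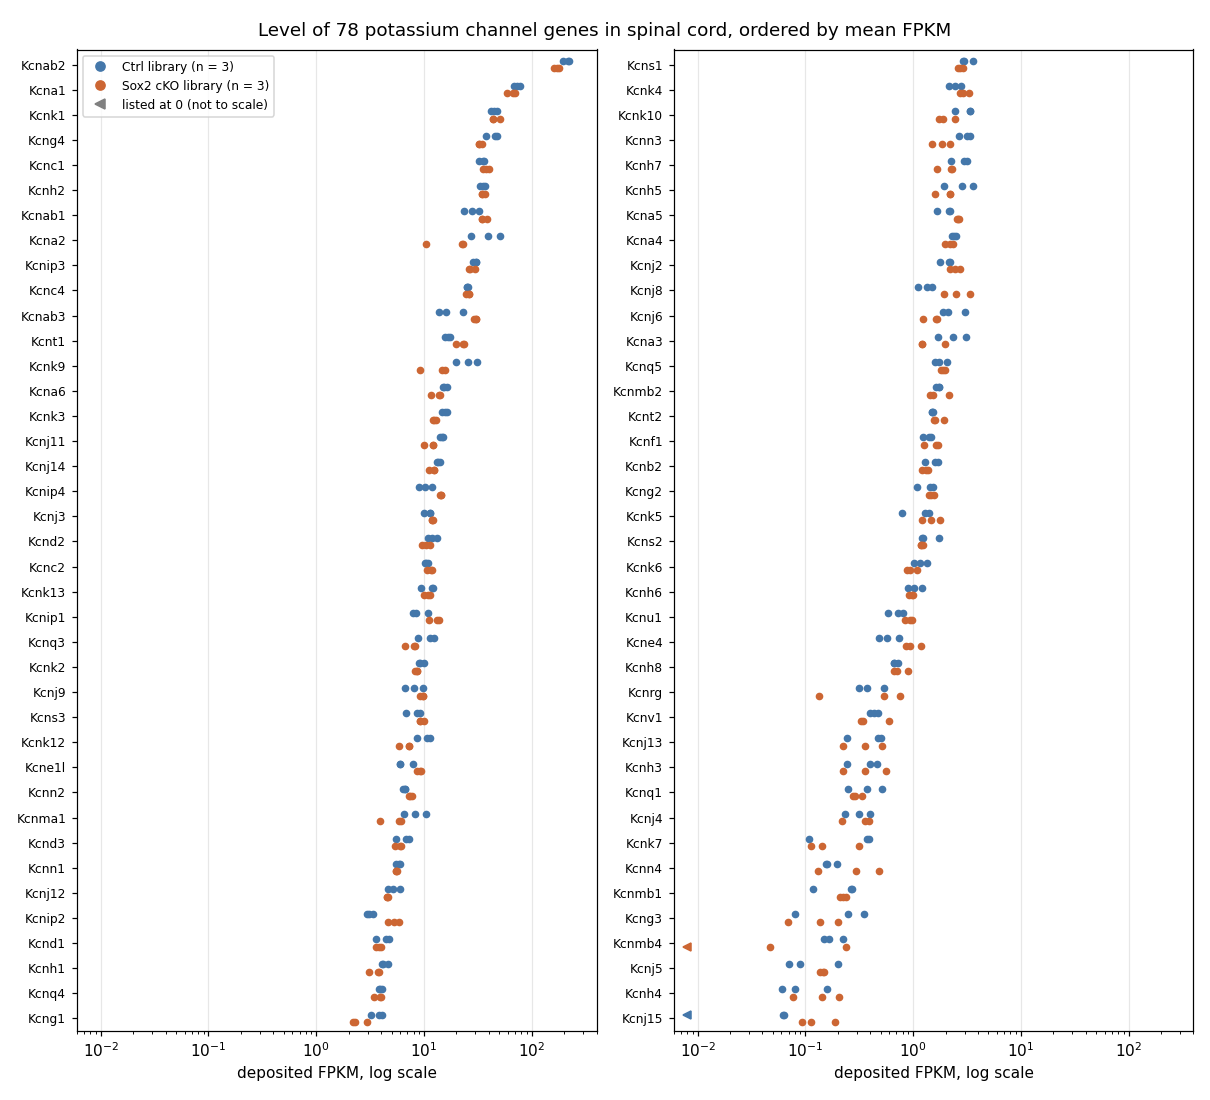
Deposited FPKM (log scale) of 78 of the 81 potassium channel genes in each of 3 Ctrl and 3 Sox2 cKO libraries, 1 point per library, ordered by the mean over the 6 libraries. Kcnab2 stood at the top with a mean of 190 FPKM and Kcnj15 at the bottom with 0.0866, and triangles mark libraries in which a gene was listed at 0.

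In the comparison of Sox2 cKO with Ctrl, 24 potassium channel genes passed an adjusted p of 0.05 in edgeR's quasi-likelihood test over all 16137 genes tested. Lower levels were called for 18 of the 78 members tested, beside 12.4% of all genes tested, and higher levels for 6 members, beside 12.2% of all genes tested. The median log2 fold change of the members was -0.17, and that of all genes tested was 0.02. The log2 fold change was negative in 50 of the 78 members and below 0.1 in size in 17. In 27 members every Sox2 cKO library lay below every Ctrl library in CPM, beside 22.1% of all genes tested, and in 10 every Sox2 cKO library lay above, beside 22.6%. For groups of 3, the smallest p of an exact permutation test is 0.1.

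The 18 lower calls were spread over every kind of pore, and most of the higher calls were auxiliary subunits. Lower calls numbered 3 of 15 voltage-gated pore subunits, 3 of 13 subunits of the M-current and ether-a-go-go families, 2 of 9 silent subunits, 3 of 12 inward rectifiers, 4 of 10 K2P subunits, 2 of 7 calcium- or sodium-activated subunits and 1 of 11 auxiliary subunits. Higher calls numbered 4 of 11 auxiliary subunits, 1 of 12 inward rectifiers and 1 of 7 calcium- or sodium-activated subunits. The median log2 fold change was -0.31 for the K2P subunits, -0.30 for the silent subunits, -0.26 for the voltage-gated pores, -0.21 for the M-current and ether-a-go-go families, -0.00 for the inward rectifiers, 0.07 for the calcium- or sodium-activated subunits and 0.36 for the auxiliary subunits. The kinds were assigned by gene symbol and not by gating, and Kcnu1 stands among the calcium- or sodium-activated subunits on that basis alone. The kinds hold few genes, and a difference between kinds was not tested.

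**Figure D2:**
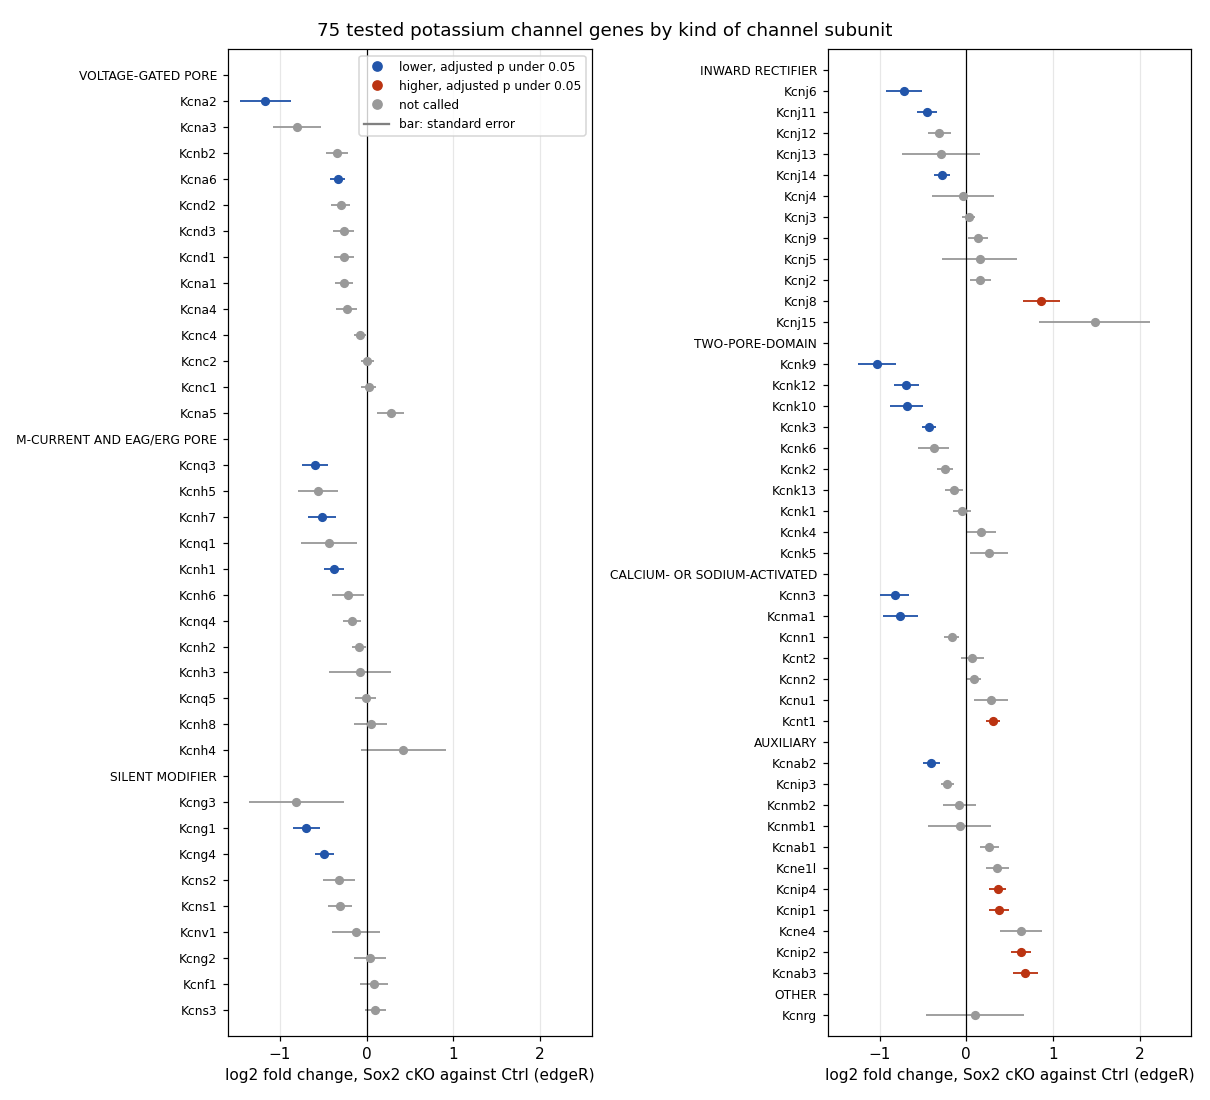
Log2 fold change of Sox2 cKO against Ctrl from edgeR for 75 of the 78 potassium channel genes tested, grouped by kind of subunit (two-pore-domain marks the K2P subunits), with bars for the standard error. Blue points (17) were lower and red points (6) higher at an adjusted p under 0.05, and 4 of the red points stand among the auxiliary subunits.

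Of the genes called, Kcna2 had the largest fall. This gene encodes a voltage-gated pore of axons and lies at chr3:107101146-107115005 on the plus strand of GRCm38. Its level was 95.4, 184 and 143 CPM in Ctrl and 34.4, 77.1 and 76.4 CPM in Sox2 cKO, so that every Sox2 cKO library was below the lowest Ctrl library although the Ctrl libraries themselves differed widely. The log2 fold change was -1.17 (SE 0.29, adjusted p = 0.022, edgeR). Kcna1, which joins Kcna2 in the same axonal channels, was at 613, 721 and 691 CPM in Ctrl and 499, 579 and 618 CPM in Sox2 cKO. The groups overlapped for Kcna1, and its log2 fold change of -0.26 did not pass the test (SE 0.10, adjusted p = 0.094, edgeR). The ratio of Kcna2 to Kcna1 in FPKM, which does not depend on library scaling and was chosen after the values were seen, was 0.404, 0.663 and 0.539 in Ctrl and 0.179, 0.346 and 0.321 in Sox2 cKO.

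Other Kcna genes were lower or showed no call. Kcna6, another pore of the same subfamily, named after its value was seen, fell from 89.2, 99.1 and 92.9 CPM to 76.8, 65.9 and 80.4 CPM, with a log2 fold change of -0.33 (SE 0.09, adjusted p = 0.026, edgeR). The Kcna6 groups did not overlap. Kcna3, Kcna4 and Kcna5 were not called.

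The auxiliary subunits of the Kcna channels moved in opposite directions. Kcnab2, which helps to bring Kcna pores to the axon, was at 767, 895 and 903 CPM in Ctrl and 601, 647 and 693 CPM in Sox2 cKO, a log2 fold change of -0.40 (SE 0.10, adjusted p = 0.019, edgeR). Kcnab3 was at 59.1, 41.9 and 36.9 CPM in Ctrl and 73.4, 74.9 and 73.0 CPM in Sox2 cKO, a log2 fold change of 0.68 (SE 0.15, adjusted p = 0.015, edgeR). Both genes had groups that did not overlap. Kcnab1 was at 144, 126 and 110 CPM in Ctrl and 142, 163 and 151 CPM in Sox2 cKO, and its log2 fold change of 0.27 did not pass the test (adjusted p = 0.088, edgeR). Within a library, the FPKM of Kcnab3 was 0.119, 0.0723 and 0.0631 times that of Kcnab2 in Ctrl and 0.189, 0.179 and 0.163 times in Sox2 cKO. This ratio was chosen after the values were seen, and its groups could not overlap because those of both genes stood apart in opposite directions. Exons of Kcnab3 overlap the antisense gene Kcnab3os, which held 5 counts over all libraries.

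The silent subunits Kcng1 and Kcng4, which form no channel alone and modify voltage-gated pores, both fell. Kcng1 fell from 13.4, 17.5 and 16.7 CPM to 8.48, 9.01 and 11.9 CPM, a log2 fold change of -0.69 (SE 0.16, adjusted p = 0.016, edgeR). The more abundant Kcng4 fell from 143, 187 and 184 CPM to 116, 120 and 130 CPM, a log2 fold change of -0.49 (SE 0.11, adjusted p = 0.016, edgeR). The groups did not overlap for either gene. The remaining silent subunits, Kcnf1, Kcng2, Kcng3, Kcns1, Kcns2, Kcns3 and Kcnv1, were not called. Kcnb2, a delayed rectifier pore, had a log2 fold change of -0.34 (adjusted p = 0.073, edgeR).

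Kcnc1, a pore that lets neurons fire fast, was at 281, 283 and 267 CPM in Ctrl and 258, 300 and 288 CPM in Sox2 cKO. Its groups overlapped, and its log2 fold change was 0.03 (SE 0.09, adjusted p = 0.84, edgeR).

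The Kcnd pores of the A-type current were not called, whereas 3 of their 4 Kcnip subunits were higher. Kcnd2, the highest of the 3 pores, was at 55.9, 63.6 and 72.6 CPM in Ctrl and 46.2, 56.8 and 53.0 CPM in Sox2 cKO, with a log2 fold change of -0.30 (adjusted p = 0.072, edgeR). Kcnd3 had a log2 fold change of -0.27 (adjusted p = 0.13, edgeR). The calcium sensor Kcnip2, which raises the surface level of Kcnd pores, was at 10.6, 10.1 and 9.70 CPM in Ctrl and 17.1, 15.8 and 14.3 CPM in Sox2 cKO, a log2 fold change of 0.64 (SE 0.11, adjusted p = 0.013, edgeR). Every Sox2 cKO library stood above every Ctrl library for this gene, and the Ctrl libraries lay close together.

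Kcnip1 rose from 45.1, 35.8 and 34.6 CPM to 53.1, 52.7 and 44.8 CPM, with 1 Sox2 cKO library below the highest Ctrl library and a log2 fold change of 0.38 (SE 0.12, adjusted p = 0.039, edgeR). Kcnip4 rose from 28.6, 25.6 and 23.1 CPM to 32.0, 33.5 and 33.9 CPM without overlap, a log2 fold change of 0.36 (SE 0.10, adjusted p = 0.025, edgeR). Kcnip3, the most abundant of the family, was at 78.6, 87.1 and 87.3 CPM in Ctrl and 76.2, 71.5 and 69.9 CPM in Sox2 cKO, and its log2 fold change of -0.22 did not pass the test (SE 0.08, adjusted p = 0.061, edgeR). The ratio of Kcnip2 to Kcnip3 in FPKM was 0.118, 0.101 and 0.0975 in Ctrl and 0.197, 0.194 and 0.180 in Sox2 cKO. It was chosen after the values were seen. Both genes had groups without overlap in CPM, in opposite directions, so the ratios of the groups could not overlap. Of the auxiliary subunits of other pores, Kcne1l was at 12.3, 9.56 and 9.75 CPM in Ctrl and 12.6, 14.0 and 13.9 CPM in Sox2 cKO (log2 fold change 0.36, adjusted p = 0.068, edgeR).

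Kcnq3, a subunit of the M-current that restrains repetitive firing, fell from 101, 133 and 151 CPM to 71.4, 91.8 and 91.8 CPM, with a log2 fold change of -0.59 (SE 0.15, adjusted p = 0.021, edgeR). The Kcnq3 groups did not overlap. In the ether-a-go-go family, Kcnh7 fell by 0.52 on the log2 scale (SE 0.16, adjusted p = 0.044, edgeR), with 30.1, 43.6 and 41.6 CPM in Ctrl and 21.04, 29.2 and 30.3 CPM in Sox2 cKO. The lowest Ctrl library of Kcnh7 lay just below the highest Sox2 cKO library. Kcnh1, also named after its value was seen, fell by 0.38 (SE 0.11, adjusted p = 0.035, edgeR). Kcnh2, the most abundant gene of that family, had a log2 fold change of -0.09 (adjusted p = 0.44, edgeR).

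The K2P subunits called were all lower. Kcnk9, an acid-sensitive leak channel of neurons, fell from 24.05, 39.1 and 32.5 CPM to 10.54, 18.5 and 17.6 CPM, a log2 fold change of -1.03 (SE 0.22, adjusted p = 0.014, edgeR). Its relative Kcnk3, which can share a channel with it, fell from 56.4, 65.4 and 64.0 CPM to 46.1, 46.1 and 45.9 CPM, a log2 fold change of -0.43 (SE 0.08, adjusted p = 0.013, edgeR). The Kcnk3 values of the 3 Sox2 cKO libraries were nearly equal, whereas library 1 was far below the others for Kcnk9. The ratio of Kcnk9 to Kcnk3 in FPKM, also chosen after the values were seen, was 1.34, 1.88 and 1.60 in Ctrl and 0.720, 1.27 and 1.21 in Sox2 cKO.

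Kcnk12, a subunit that is silent on its own in most cells studied, fell from 16.9, 22.9 and 22.1 CPM to 10.8, 13.6 and 13.9 CPM, a log2 fold change of -0.69 (SE 0.14, adjusted p = 0.014, edgeR). The mechanosensitive channel Kcnk10 fell from 6.28, 8.86 and 8.98 CPM to 4.57, 5.97 and 4.38 CPM, a log2 fold change of -0.69 (SE 0.19, adjusted p = 0.028, edgeR). Its relatives at the nodes, Kcnk2 and Kcnk4, had log2 fold changes of -0.25 (adjusted p = 0.070, edgeR) and 0.18 (adjusted p = 0.46, edgeR).

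Kcnk1, Kcnk6 and Kcnk13, named for their known roles in glia, were not called. Kcnk1, a leak channel expressed by astrocytes as well as neurons, was at 97.3, 106 and 117 CPM in Ctrl and 94.4, 97.6 and 116 CPM in Sox2 cKO, a log2 fold change of -0.05 (SE 0.10, adjusted p = 0.73, edgeR). Of the 7 astrocyte markers, 5 fell in the same libraries, Gfap among them with a log2 fold change of -1.12 (SE 0.15, adjusted p = 0.010, edgeR), and 2 of the 7 were called after a correction for gene length. The astrocyte channels Kcnj10 and Kcnj16, which are not members, fell by 0.66 and 1.32 on the log2 scale (adjusted p = 0.012 and 0.0087, edgeR). Of the channels known from microglia, Kcnk13 had a log2 fold change of -0.14 (adjusted p = 0.31, edgeR) and Kcnk6 of -0.38 (adjusted p = 0.14, edgeR), and Kcnn4 was at 0.404, 0.333 and 0.338 CPM in Ctrl and 0.922, 0.580 and 0.264 CPM in Sox2 cKO and was not tested. Among the 6 microglia markers, C1qb alone was called, and it was higher (log2 fold change 0.75, adjusted p = 0.046, edgeR). Its groups overlapped, and it was not called after the length correction (adjusted p = 0.18, edgeR). Cx3cr1 was lower without overlap (log2 fold change -0.37, adjusted p = 0.053, edgeR), and the median log2 fold change of the 6 was -0.04.

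Among the inward rectifiers, Kcnj8 was the only gene called higher. Kcnj8 encodes the pore of the ATP-sensitive channel of pericytes and smooth muscle and lies at chr6:142564837-142571614 on the minus strand of GRCm38. It was at 3.32, 2.54 and 3.14 CPM in Ctrl and 6.90, 4.13 and 5.44 CPM in Sox2 cKO, without overlap, and its log2 fold change was 0.87 (SE 0.22, adjusted p = 0.021, edgeR). Abcc9, the regulatory subunit of the same channel, was at 11.98, 13.8 and 14.5 CPM in Ctrl and 14.3, 12.1 and 14.8 CPM in Sox2 cKO (log2 fold change 0.03, adjusted p = 0.88, edgeR). The 8 pericyte and smooth muscle markers, Abcc9 among them, summed to 245 to 273 CPM in Ctrl and 257 to 335 CPM in Sox2 cKO. Their median log2 fold change was 0.113. Notch3 alone was called, and it was lower, but it was not called after the length correction (adjusted p = 0.16, edgeR). Acta2 and Tagln were higher without overlap (log2 fold changes 0.407 and 0.415, adjusted p = 0.085 and 0.058, edgeR). Pdgfrb and Myh11 had negative log2 fold changes (-0.252 and -0.112), with overlap. The 5 endothelial markers summed to 178 to 204 CPM in Ctrl and 193 to 278 CPM in Sox2 cKO, of which Ly6c1 was called and was higher. Library 1 was highest for both sums and for Kcnj8, and the part of vessel content in the Kcnj8 result was not tested. Kcnj2, another channel of vessels, had a log2 fold change of 0.16 (adjusted p = 0.35, edgeR).

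Kcnj11, the pore of the ATP-sensitive channel of neurons, fell from 16.5, 18.4 and 18.3 CPM to 11.2, 13.6 and 14.0 CPM, with a log2 fold change of -0.45 (SE 0.12, adjusted p = 0.023, edgeR). Its regulatory subunit Abcc8 had a log2 fold change of -0.04 (adjusted p = 0.81, edgeR). Kcnj6, a G-protein-gated channel, fell from 6.91, 11.4 and 8.16 CPM to 4.26, 5.73 and 6.04 CPM, a log2 fold change of -0.72 (SE 0.21, adjusted p = 0.033, edgeR). The other G-protein-gated pores Kcnj3, Kcnj5 and Kcnj9 were not called, and Kcnj3 was at 59.9, 61.5 and 55.2 CPM in Ctrl and 59.5, 60.2 and 60.7 CPM in Sox2 cKO. Kcnj14, named after its value was seen, fell by 0.28 on the log2 scale (SE 0.09, adjusted p = 0.045, edgeR).

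The calcium-activated pores Kcnma1 and Kcnn3 fell and the sodium-activated pore Kcnt1 rose. Kcnma1, the pore of the large-conductance channel, was at 33.1, 53.6 and 44.1 CPM in Ctrl and 18.6, 28.4 and 30.1 CPM in Sox2 cKO, a log2 fold change of -0.76 (SE 0.20, adjusted p = 0.024, edgeR). Its auxiliary subunits were low, with Kcnmb2 at 5.11, 5.24 and 5.02 CPM in Ctrl and 4.26, 6.14 and 4.12 CPM in Sox2 cKO and Kcnmb4 at 33 counts over all libraries. Exons of Kcnmb4 overlap the antisense genes Kcnmb4os1 and Kcnmb4os2, and whether that overlap lowered its count was not tested.

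Kcnn3, a small-conductance channel of the afterhyperpolarization, was at 14.2, 17.5 and 18.8 CPM in Ctrl and 7.38, 11.3 and 9.71 CPM in Sox2 cKO, a log2 fold change of -0.83 (SE 0.17, adjusted p = 0.013, edgeR). Kcnn2, the highest of the family, was at 24.5, 25.8 and 25.0 CPM in Ctrl and 25.9, 27.9 and 26.2 CPM in Sox2 cKO, a log2 fold change of 0.09 (SE 0.08, adjusted p = 0.46, edgeR). Kcnt1 was at 103, 102 and 98.1 CPM in Ctrl and 130, 131 and 115 CPM in Sox2 cKO, without overlap, a log2 fold change of 0.31 (SE 0.08, adjusted p = 0.025, edgeR). The other sodium-activated pore, Kcnt2, had a log2 fold change of 0.07 (adjusted p = 0.73, edgeR).

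**Figure D3:**
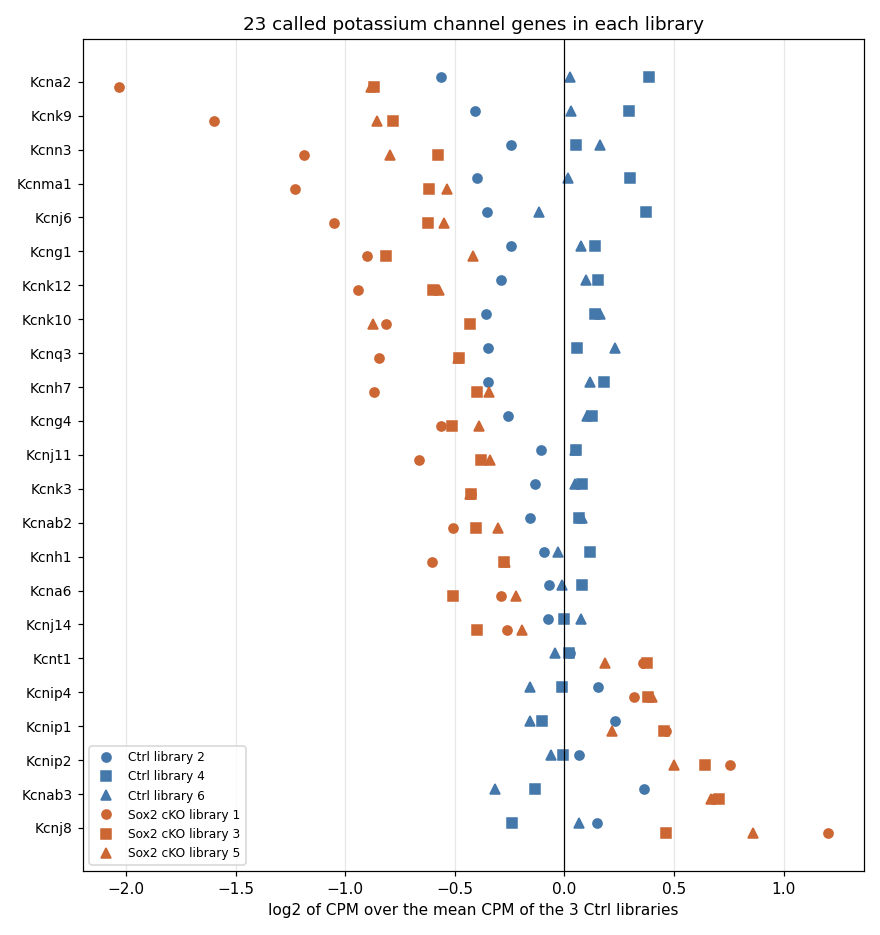
Log2 of CPM over the mean CPM of the 3 Ctrl libraries, for 23 of the 24 potassium channel genes with an adjusted p under 0.05, 1 point per library. Ctrl library 2 was the lowest Ctrl library for all 17 genes drawn that were called lower, and Sox2 cKO library 1 was the lowest Sox2 cKO library for 13 of them.

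The promoters of Kcnn3 and Kcnj8 are shown because these were the called members with the largest fall and the largest rise among those with a single promoter in the RefSeq table that lies in no annotated exon. RefSeq promoters (GRCm38.p6) were held for 58 of the 81 members, 78 promoters in all, and the 250 bases before the start were searched for the SOX core motifs ACAAAG and ACAATG on both strands. A match would stand in capitals, and neither sequence holds one. The Kcnn3 promoter is chr3:89519914-89520163 on the plus strand and the Kcnj8 promoter is chr6:142571615-142571864 on the minus strand.
Kcnn3: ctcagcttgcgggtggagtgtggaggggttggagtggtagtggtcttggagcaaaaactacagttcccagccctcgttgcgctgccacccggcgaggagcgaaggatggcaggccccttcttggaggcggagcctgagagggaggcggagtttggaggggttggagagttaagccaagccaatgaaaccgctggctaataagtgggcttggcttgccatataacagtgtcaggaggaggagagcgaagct
Kcnj8: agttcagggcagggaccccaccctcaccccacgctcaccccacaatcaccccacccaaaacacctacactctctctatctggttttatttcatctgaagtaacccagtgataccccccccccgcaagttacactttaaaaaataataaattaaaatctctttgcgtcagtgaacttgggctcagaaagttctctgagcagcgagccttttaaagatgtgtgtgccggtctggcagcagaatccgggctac
G and C made up 58.8% of the Kcnn3 bases, with 10 CpG dinucleotides, and 49.2% of the Kcnj8 bases, with 6. Over all members, 14 of the 78 promoters (17.9%) held a match, beside 25.2% of all 32851 promoters of the same length. The median share of G and C was 60.2% in the promoters of the members and 52.4% in all promoters.

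Single libraries weighed on the calls. Ctrl library 2 was the lowest Ctrl library for all 18 members called lower, and for 92.7% of all 2008 genes called lower. Sox2 cKO library 1 was the lowest of its group for 14 of the 18 (77.8%), and for 77.6% of all genes called lower. Without Ctrl library 4 or without Sox2 cKO library 1, edgeR called 0 members, and it called 26 and 8 genes over the whole table (0.159% and 0.0485%). DESeq2 called 12 members without Ctrl library 4, beside 14.9% of the genes it gave an adjusted p, and 15 without Sox2 cKO library 1, beside 17.5%. With edgeR, 7 of 79 members tested were called without Ctrl library 6, beside 6.54% of all genes tested, 12 of 79 without Sox2 cKO library 3, beside 8.31%, 20 of 80 without Sox2 cKO library 5, beside 16.3%, and 38 of 80 without Ctrl library 2, beside 36.9%. The number of members called thus moved with the number of genes called over the whole table. All 24 called members kept the sign of their log2 fold change in every fit that left out a library. For the 17 lower and 5 higher members without overlap of CPM, this could hardly have been otherwise. Groups that do not overlap stay apart when a library is removed, so the kept sign is no separate evidence for these members.

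With all 6 libraries, DESeq2 called the same 24 members and 6 more, which made 24 lower, beside 15.2% of the genes it gave an adjusted p, and 6 higher, beside 12.9%. The 6 that it added were all lower, and Kcna1, Kcna3, Kcnd2 and Kcnip3 were among them. In each of the 6 fits of DESeq2 with 1 library removed, 9 of the lower members were called, among them Kcng1, Kcng4, Kcnk3, Kcnk12, Kcnma1, Kcnn3, Kcnq3 and Kcnab2, and 2 of the higher members, Kcnab3 and Kcnip2. The share of all genes called in all 6 of these fits at once was not computed, so the 9 and 2 members have no background beside them. Single fits called from 1996 of 13361 genes (without Ctrl library 4) to 5607 of 15784 genes (without Ctrl library 2), both directions together.

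**Figure D4:**
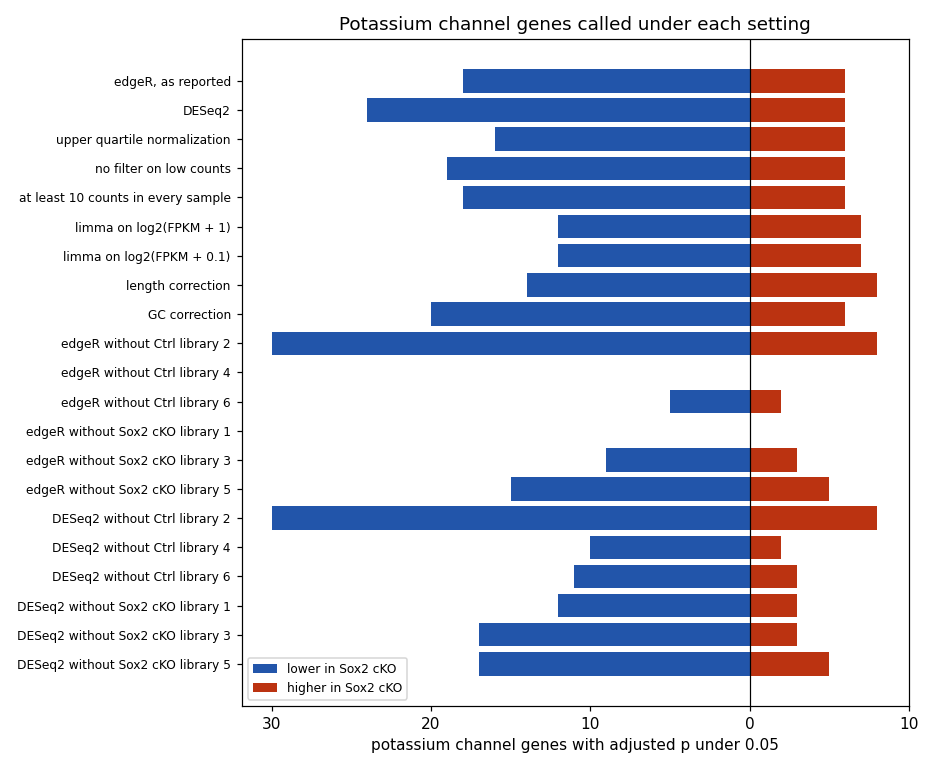
Number of potassium channel genes with an adjusted p under 0.05, lower (blue, drawn to the left) and higher (red, drawn to the right) in Sox2 cKO, for edgeR as reported, for each alternative and for each fit that left out a library. The reported fit called 18 lower and 6 higher, and edgeR without Ctrl library 4 or Sox2 cKO library 1 called 0.

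Gene length moved with the fold change over the whole table. Gene length here is the length behind the deposited FPKM, worked out from counts and FPKM, and not the span on the chromosome. Across the 16137 genes tested, the rank correlation of log2 fold change with gene length was -0.48, whereas across the 78 members it was -0.08; the genes of a correlation share the same 6 libraries and are not replicates. Called lower were 5 of the 26 shortest members, 7 of the 26 in the middle and 6 of the 26 longest. After a correction for length in each library, 14 members were called lower, beside 6.99% of all genes tested, and 8 higher, beside 6.08%. The median log2 fold change of the members was then -0.11, and that of all genes tested 0.00.

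The members called changed in part with this correction. Over the members, the rank correlation of log2 fold change with length was -0.08 before it and 0.32 after it. In the 26 longest members, the median log2 fold change went from -0.24 to 0.07. Their lower calls went from 6 to 2 and their higher calls from 1 to 4. Whether a correction fitted to all genes suits the members was not tested. Calls were kept by 18 of the 24 and lost by Kcnq3, Kcnh7, Kcnh1, Kcna6, Kcnj6 and Kcnip4, and Kcnq3 went from -0.59 to -0.19 (adjusted p = 0.15, edgeR) and Kcnh7 from -0.52 to -0.08 (adjusted p = 0.61, edgeR). Kcnj6 went from -0.72 to -0.70 (adjusted p = 0.051, edgeR) and Kcnip4 from 0.36 to 0.25 (adjusted p = 0.072, edgeR). The lengths of Kcnq3 and Kcnh7 behind the deposited FPKM are 11406 and 13321 bases, beside a median of 3808 bases over the members tested. Called only after the correction were Kcnc1 (log2 fold change 0.32, adjusted p = 0.033, edgeR), Kcnc2 (0.23, adjusted p = 0.048, edgeR) and Kcnab1 (0.35, adjusted p = 0.046, edgeR), which were higher, and Kcnip3 (-0.29, adjusted p = 0.031, edgeR), which was lower. Kcna2 stood at -1.16 (adjusted p = 0.033, edgeR) and Kcnip2 at 0.61 (adjusted p = 0.018, edgeR) after it. Kcnk9, which is short, went from -1.03 to -1.34 (adjusted p = 0.019, edgeR).

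**Figure D5:**
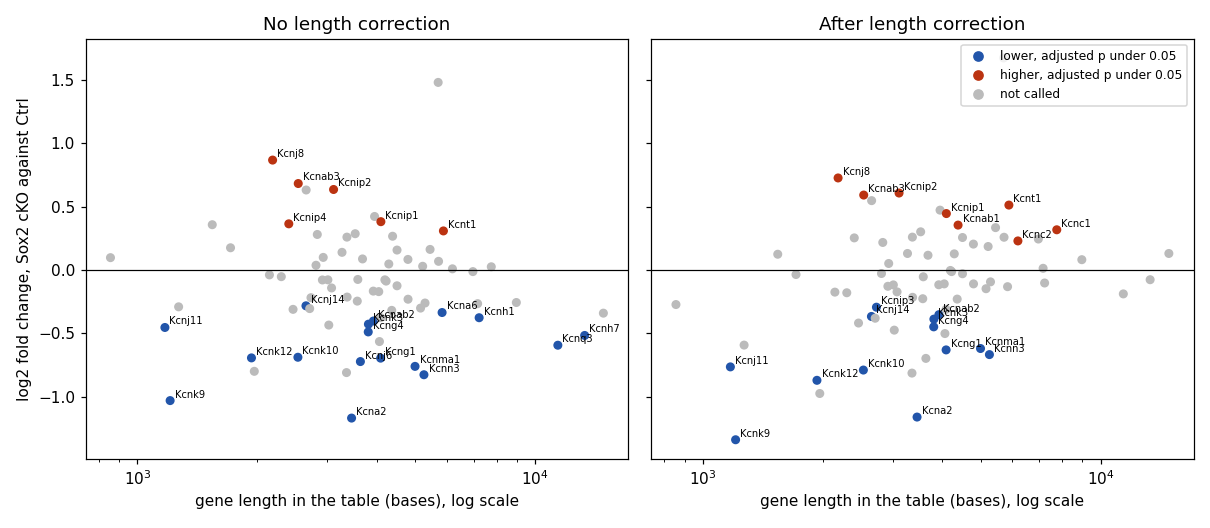
Log2 fold change of Sox2 cKO against Ctrl against gene length (log scale) for 75 of the 78 potassium channel genes tested, without (left) and with (right) a correction for length in each library. Named points had an adjusted p under 0.05, and Kcnq3 and Kcnh7, the longest genes called at the left, are not called at the right.

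Genes whose products bind, cluster or accompany potassium channels were examined as a list of 30, chosen with earlier results of these data known. Of these, 12 fell and 1 rose, with a median log2 fold change of -0.29, beside 12.4% and 12.2% of all genes tested. After the length correction, 4 were lower and 2 higher. Vapa, a membrane protein of the endoplasmic reticulum that binds channels at the cell surface, fell from 112, 90.1 and 96.8 CPM to 59.2, 60.7 and 57.9 CPM, a log2 fold change of -0.75 (SE 0.09, adjusted p = 0.0075, edgeR). Its relative Vapb had a log2 fold change of -0.08 (adjusted p = 0.47, edgeR). Amigo1, an auxiliary protein of voltage-gated channels, fell by 0.37 (SE 0.08, adjusted p = 0.017, edgeR). After the length correction, Amigo1 had a log2 fold change of -0.19 and was not called (adjusted p = 0.082, edgeR).

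Of the adhesion and scaffold proteins that hold Kcna channels beside the nodes, Cntnap2 fell by 0.47 (SE 0.12, adjusted p = 0.021, edgeR) and Cntn2 by 0.40 (SE 0.10, adjusted p = 0.019, edgeR). Dlg2 fell by 0.65 (SE 0.16, adjusted p = 0.020, edgeR), Adam22 by 0.49 (SE 0.13, adjusted p = 0.023, edgeR) and Ank3, which anchors Kcnq channels at nodes, by 0.61 (SE 0.14, adjusted p = 0.017, edgeR). Of these 5 genes, Dlg2 alone was called after the length correction. The scaffold proteins Dlg1, Dlg4 and Epb41l3 of the same list were not called. Their log2 fold changes were -0.10 (adjusted p = 0.33, edgeR), -0.29 (adjusted p = 0.059, edgeR) and -0.03 (adjusted p = 0.80, edgeR). Adam11 was the 1 gene of the list that rose, with 94.2, 88.9 and 79.5 CPM in Ctrl and 124, 119 and 113 CPM in Sox2 cKO and a log2 fold change of 0.43 (SE 0.09, adjusted p = 0.013, edgeR). The remaining calls, Adam23, Lgi1, Lgi3 and Hcn2 among them, were all lower. Among these named genes, Lgi3 alone was called after the length correction, and the groups overlapped for Lgi1 and Hcn2. Dpp6 and Dpp10, the further auxiliary proteins of Kcnd channels, had log2 fold changes of -0.22 (adjusted p = 0.091, edgeR) and -0.09 (adjusted p = 0.39, edgeR). After the length correction, Dpp10 had a log2 fold change of 0.36 (adjusted p = 0.039, edgeR) and was called higher together with Adam11.

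The neuron and motor neuron markers gave few calls in the same libraries. Of 7 neuron markers, Nefh alone was called, with a log2 fold change of -0.45 (SE 0.11, adjusted p = 0.018, edgeR), and the list summed to 10870 to 11545 CPM in Ctrl and 10288 to 10586 CPM in Sox2 cKO. Of 5 motor neuron markers, Slc18a3 alone was called, at -0.46 (SE 0.13, adjusted p = 0.029, edgeR), and the list summed to 326 to 347 CPM in Ctrl and 313 to 324 CPM in Sox2 cKO. Both sums were lower in every Sox2 cKO library than in any Ctrl library, and their part in the channel results was not tested. Within the neuron list, Nefm and Nefh were lower without overlap, while Snap25 was at 2577, 1921 and 1863 CPM in Ctrl and 2610, 2838 and 2676 CPM in Sox2 cKO and Rbfox3 was also higher without overlap. Snap25 had a log2 fold change of 0.35 (adjusted p = 0.062, edgeR), and of 0.48 after the length correction (adjusted p = 0.040, edgeR). The 4 sensory ganglion markers summed to 7.98 CPM in Ctrl library 4 and 3.40 CPM in Sox2 cKO library 5, beside 0.583 to 1.26 CPM in the other libraries, so these libraries held more ganglion transcripts than the rest. Ctrl library 4 was also the highest Ctrl library for 13 of the 18 members called lower, beside 49.2% of all genes called lower and 51.3% of the members tested, and the part of ganglion neurons in those values was not tested. Skeletal muscle markers summed to 25.9 and 55.8 CPM in Sox2 cKO libraries 1 and 5 and to 2.66 to 10.4 CPM in the others, and neutrophil markers, all 5 called higher, to 11.3 to 17.99 CPM in Ctrl and 21.8 to 68.3 CPM in Sox2 cKO. All 4 oligodendrocyte precursor markers and Foxj1 of the 3 ependymal markers were called lower, while no marker of oligodendrocytes, Schwann cells, red blood cells or meningeal fibroblasts was called. For the labelled tissue, Hoxc8, a gene of the spinal axis, was at 139 to 190 CPM.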

How the data were processed

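Per the labels and the study's methods, single-end reads were mapped by the authors with STAR 2.5 on mm10, and raw counts per gene from HTSeq 0.6.1 were deposited; the library kit marks strand, and the strand setting of the counting is not given in the sources used here. The deposited FPKM values were made by the authors from the same counts and gene lengths. No other columns of values were left out (0).

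Gene names, types and positions came from GENCODE M21 (34490 of 35275 identifiers matched), and promoters from RefSeq. The test was that of edgeR 4.0.16 under R 4.3.3 (filterByExpr, TMM, quasi-likelihood test, Benjamini-Hochberg adjustment over all genes tested, threshold 0.05), with the standard error taken as the log2 fold change over the root of F. CPM uses TMM library sizes. The alternatives were DESeq2 1.42.0, limma 3.58.1 on log2 FPKM, other filters and scalings, lowess corrections for length or GC content (span 0.3), and fits without each library. The edgeR and length-corrected fits were tested on simulated data. Named were the highest member by FPKM of each subfamily, up to 15 rises and 15 falls called with a mean count of 50 or more, and members listed for their known roles. The members, the lists and the tests were chosen with earlier results of these data known. The study's methods describe littermate mice of both sexes in each group; the sex and litter of a library were not assigned, so neither was a term of the fit, and p-values measure the spread between these samples. Library pairs differed by 6.74 to 83.4 times the sampling noise (chi-square per degree of freedom), so each was treated as a separate sample.
Some members of the lists are counted but not reported here by name.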

Additional observations from a re-analysis of the deposited data

How the results depend on the processing

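The numbers of members called lower (18) and higher (6) stayed within 1.5 times under DESeq2, upper quartile normalization, no filter, at least 10 counts in every sample, limma on log2 FPKM (pseudocount 1 or 0.1) and the length and GC corrections, over which the lower count ran from 12 to 24 and the higher from 6 to 8. Over the whole table and both directions, these alternatives called from 2109 of 16137 genes (length correction) to 4334 of 15425 genes (DESeq2). Fits without a library ran from 0 to 30 lower and from 0 to 8 higher with edgeR. With DESeq2, a set of fits added after the data were seen, they ran from 10 to 30 lower and 2 to 8 higher. Over the whole table, fits without a library called from 8 of 16482 to 6119 of 16590 genes with edgeR. With DESeq2 they called from 1996 of 13361 to 5607 of 15784 genes. The median log2 fold change of the members ran from -0.24 to -0.13 in those fits. Its rank correlation with length, -0.08, ran from -0.12 to 0.029 in the edgeR fits and was 0.32 after the length correction, which acts on length itself. Groups did not overlap for 37 members by CPM and for 35 by FPKM. By CPM, 27 members were lower and 10 higher, beside 22.1% and 22.6% of all genes tested. The share of all genes by FPKM was not computed.

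Signs changed for named members without a call. After the length correction, the log2 fold change was 0.082 for Kcna1, 0.014 for Kcnd3, -0.035 for Kcnk4 and -0.27 for Kcnrg. It was -0.02 for Kcnc1 after the GC correction. With limma it was 0.012 and 0.013 for Kcnh2 and 0.043 and 0.044 for Kcnk1 (pseudocounts 1 and 0.1), and 0.001 for Kcnmb2 (pseudocount 1). Without a library it ran from -0.02 to 0.088 for Kcnc1, -0.018 to 0.215 for Kcnf1, -0.151 to 0.018 for Kcnk1, -0.291 to 0.028 for Kcnmb2, -0.334 to 0.537 for Kcnrg, -0.022 to 0.213 for Kcns3 and -0.475 to 0.033 for Kcnv1. The cause was not tested. All 24 called members kept their sign throughout, which fits without a library could hardly have changed for members whose groups did not overlap. No paired analysis was possible because the deposited columns carry no replicate numbers.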

Other observations

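The share of the potassium channel transcripts held by some kinds of subunit did not overlap between the groups, and no difference in shares was tested. As a share of the summed FPKM of all members in a library, the calcium- or sodium-activated subunits made up 3.87% ± 0.07 in Ctrl (SD, n = 3) and 4.48% ± 0.27 in Sox2 cKO (SD, n = 3), the silent subunits 5.71% ± 0.32 and 5.22% ± 0.18, and the K2P subunits 11.3% ± 0.34 and 10.5% ± 0.27, and for these 3 kinds the groups did not overlap. The auxiliary subunits made up 28.7% ± 1.29 in Ctrl and 30.6% ± 0.81 in Sox2 cKO, and the voltage-gated pores 36.4% ± 1.19 and 34.8% ± 1.30, and for both the groups overlapped, as they did for the remaining kinds. These shares were chosen after the values were seen, and do not depend on the scaling of libraries. They are parts of 1 whole, so the kinds are not independent of each other. A single gene can carry a kind. Kcng4, itself called lower, held 37.4, 47.1 and 45.5 FPKM in Ctrl, beside 56.4, 66.4 and 66.7 FPKM for all silent subunits. The called calcium- or sodium-activated subunits went both ways. From Ctrl to Sox2 cKO, mean FPKM went from 16.6 to 22.1 for Kcnt1, from 8.41 to 5.31 for Kcnma1 and from 3.09 to 1.86 for Kcnn3. The higher share of this kind thus does not hold for each member.

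Exons of 27 members overlap an exon of another annotated gene, and 9 of these were among the 24 called members. The strand setting of the counting is not given in the sources used here, so the reads of such pairs may not be told apart. Kcnq1ot1, a long noncoding RNA antisense to Kcnq1, was at 10.4, 22.4 and 27.5 CPM in Ctrl and 11.8, 12.3 and 18.4 CPM in Sox2 cKO, with a log2 fold change of -0.50 (SE 0.30, adjusted p = 0.24, edgeR), while Kcnq1 itself was at 0.763 to 1.62 CPM in Ctrl and 0.831 to 0.989 CPM in Sox2 cKO.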
